A study of Mus musculus with 4 samples.

Results

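The genes described here are 48 genes of motile cilia: factors that switch on the multiciliated cell programme, dynein arms, radial spokes, the central pair and other parts of the ciliary axoneme. They were taken by name from a deposited table of 55487 mouse Ensembl gene IDs, through the GENCODE annotation of GRCm38, and all 48 were found. For 46 the symbol matched directly, and Dnai1 and Dnai2 were found under the older symbols Dnaic1 and Dnaic2. The list was drawn up with the difference between the sample groups already known. The differences between groups given for its members are therefore a description and serve as support for nothing.

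Libraries of poly(A) RNA were made from the calvaria, the roof of the skull, of mouse embryos at E14.5. The series title places it in work on citrate-carrying extracellular vesicles and mineralization of bone, and the comparison is between the frontal bone and the bones behind it. There were 2 libraries from the frontal bone, and 2 in which the parietal and interparietal bones were joined. The labels name no strain, genotype, sex, litter, treatment or number of embryos per library. Nothing states that libraries came from separate embryos, so the spread between them may be technical.

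A motile cilium is built on a ring of outer microtubule doublets around a central pair of single microtubules. Outer and inner dynein arms on the doublets make them slide, and radial spokes, the central pair and the nexin-dynein regulatory complex turn the sliding into a regular beat. Cells that carry many such cilia enter the programme through Gmnc and Mcidas, which act upstream of Foxj1 and of the amplification of centrioles, and the RFX factors act on many of the same ciliary genes. In the head, motile cilia are known from ependyma, choroid plexus epithelium and nasal respiratory epithelium. Cells of the osteoblast lineage carry a single primary cilium, which lacks dynein arms and the central pair.

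Library totals ran from 24069177 to 35555013 counts. Levels are in CPM, a gene's counts scaled to library size with a TMM correction (trimmed mean of M-values), and a count of 3 corresponded to between 0.0852 and 0.123 CPM. A gene was called at an edgeR adjusted p under 0.05, over the 20947 genes tested. In this comparison 6.25% of tested genes were called higher in frontal libraries and 6.44% lower. The bone genes Runx2, Sp7, Alpl, Ibsp, Spp1, Col1a1, Col1a2, Bglap and Dmp1 had counts in all 4 libraries. Col1a1 and Col1a2, the most abundant, were called lower in frontal libraries and Ibsp higher, while Bglap and Dmp1, genes of mature bone, were under 1 CPM in each library.

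RefSeq promoter windows of GRCm38.p6, from 250 bases before to 50 after a start, were at hand for 42 of the 48 genes (48 windows). No window was at hand for Foxj1, Dnah3, Rsph1, Rsph4a, Cfap54 and Dnaaf1. The sequences below are the bases before the start, 5′ to 3′, of both neighbouring regulators Mcidas and Ccno, of the only members with a pair of RFX half-site matches (Cfap44 and Lrrc23), of the only member with both motifs searched for (Mlf1), and of Drc7, which had no count in one group. Short stretches next to the start follow for Hydin, Drc1 and Tekt1. Capitals mark the RFX half-site GTTGCCA or its reverse complement TGGCAAC and, in Mlf1, the forkhead motif GTAAACA as its reverse complement TGTTTAC. The locations are chr13:112993618-112993867 (+ strand) for Mcidas, chr13:112987552-112987801 (+ strand) for Ccno, chr16:44394549-44394798 (+ strand) for Cfap44, chr6:124779728-124779977 (− strand) for Lrrc23, chr3:67373847-67374096 (+ strand) for Mlf1, chr8:95054853-95055102 (+ strand) for Drc7, chr8:110266917-110266976 (+ strand) for Hydin, chr5:30281333-30281392 (+ strand) for Drc1 and chr11:72361883-72361942 (− strand) for Tekt1.
Mcidas: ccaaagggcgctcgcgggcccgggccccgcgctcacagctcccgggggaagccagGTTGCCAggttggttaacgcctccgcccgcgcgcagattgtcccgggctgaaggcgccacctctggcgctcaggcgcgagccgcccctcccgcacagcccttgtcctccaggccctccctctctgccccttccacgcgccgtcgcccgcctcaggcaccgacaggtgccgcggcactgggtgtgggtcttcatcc
Ccno: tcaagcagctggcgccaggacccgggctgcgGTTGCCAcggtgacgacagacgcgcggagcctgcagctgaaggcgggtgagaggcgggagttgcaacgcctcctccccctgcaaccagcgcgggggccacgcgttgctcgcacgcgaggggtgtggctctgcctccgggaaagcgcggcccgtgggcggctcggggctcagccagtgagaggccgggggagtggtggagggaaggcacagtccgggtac
Cfap44: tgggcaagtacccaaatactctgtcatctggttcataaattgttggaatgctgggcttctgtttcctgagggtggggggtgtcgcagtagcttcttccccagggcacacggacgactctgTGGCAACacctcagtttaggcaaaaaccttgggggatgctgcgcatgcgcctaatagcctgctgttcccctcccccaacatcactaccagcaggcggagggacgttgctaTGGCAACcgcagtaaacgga
Lrrc23: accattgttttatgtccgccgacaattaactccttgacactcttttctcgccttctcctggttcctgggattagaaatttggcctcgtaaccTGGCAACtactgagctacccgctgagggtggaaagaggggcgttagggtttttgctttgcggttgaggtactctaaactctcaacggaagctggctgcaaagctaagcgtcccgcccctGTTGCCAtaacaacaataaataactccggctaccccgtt
Mlf1: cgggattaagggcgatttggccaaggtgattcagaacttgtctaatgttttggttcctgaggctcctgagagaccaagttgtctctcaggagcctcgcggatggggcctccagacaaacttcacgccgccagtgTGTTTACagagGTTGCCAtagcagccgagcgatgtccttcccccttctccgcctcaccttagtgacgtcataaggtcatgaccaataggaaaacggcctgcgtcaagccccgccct
Drc7: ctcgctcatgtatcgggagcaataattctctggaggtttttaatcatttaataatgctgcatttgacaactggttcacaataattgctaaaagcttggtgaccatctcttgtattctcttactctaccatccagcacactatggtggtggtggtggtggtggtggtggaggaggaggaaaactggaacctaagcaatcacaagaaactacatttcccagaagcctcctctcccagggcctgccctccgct
Hydin: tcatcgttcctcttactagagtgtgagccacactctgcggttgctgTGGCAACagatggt
Drc1: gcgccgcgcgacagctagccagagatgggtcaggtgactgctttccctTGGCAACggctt
Tekt1: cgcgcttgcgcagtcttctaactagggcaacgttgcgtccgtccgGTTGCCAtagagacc

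The half-site GTTGCCA, searched on both strands, was in 10 of 48 member windows (20.8%) and in 4.38% of all 32851 windows. Its letters are part of the full RFX X-box. That longer palindrome was in none of the member windows and in 0.451% of all windows. Only exact matches were counted, so near matches with a changed letter, such as those in the printed Cfap44 and Hydin sequences, were missed. The forkhead letters GTAAACA were in 2 member windows (4.17%), those of Mlf1 and Cfap43, against 3.65% of all. In Mlf1 the forkhead letters at positions −116 to −110 and the half-site at −105 to −99 lay side by side, where −1 is the last base before the start. The half-sites closest before a start lay at −12 to −6 in Drc1, −14 to −8 in Hydin, −15 to −9 in Tekt1 and −20 to −14 in Cfap44. Those of Ccno and Mcidas lay at −219 to −213 and −195 to −189, and those of Dnah10 and Zmynd10 after the start, at 10 to 16 and 38 to 44. All 10 members with the half-site (Mcidas, Ccno, Dnah10, Drc1, Cfap44, Lrrc23, Hydin, Tekt1, Zmynd10 and Mlf1) were called higher in frontal libraries, out of 28 called members with a window (35.7%). None of the 14 uncalled members with a window held it. Among other tested genes with a window the share was 5.95% of 925 called higher, 4.2% of 976 called lower and 4.62% of 11185 not called. A match is a run of letters, and no binding was measured.

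Of the 48 genes, 33 were called higher in frontal libraries, 0 lower, and 15 were not called. Of the called genes, 16 were at least 5-fold higher, 14 between 2-fold and 5-fold, and 3 under 2-fold. Over all tested genes, 1.77% were called and at least 2-fold higher. In 44 of the 48 both frontal libraries lay above both parietal-interparietal libraries, a pattern that 28.9% of all tested genes showed. Since the list was made with this contrast known, nothing is read from these shares. All 48 passed the filter on low counts, which asks for 0.356 CPM or more in 2 libraries. Of them, 7 (Dnah5, Drc7, Ttc29, Rsph4a, Tekt4, Dnaaf1 and Nme9) were under that level in both parietal-interparietal libraries and passed only through their frontal counts. These 7 are all among the 33 called and among the 16 that were at least 5-fold higher. Mcidas, Gmnc, Dnah3, Hydin, Ccdc113, Dnai1 and Dnah12 were under it in 1 parietal-interparietal library, so they too could not have passed without frontal counts. All of these but Dnai1 and Dnah12 were called. The number called was 20 without parietal-interparietal library 2, 22 without parietal-interparietal library 1 or with that pair summed as 1 sample, and none was called lower in any alternative.

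Summed over the list, the level was 299 and 278 CPM in frontal libraries 1 and 2, and 124 and 127 CPM in parietal-interparietal libraries 1 and 2. The groups were far apart and the libraries of each lay close together. In the values that follow, frontal libraries 1 and 2 come first and parietal-interparietal libraries 1 and 2 after them, and for each member both frontal values lie above both others unless an overlap is stated. In whole tissue, fewer cells of a type and less RNA per cell cannot be told apart.

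**Figure D1:**
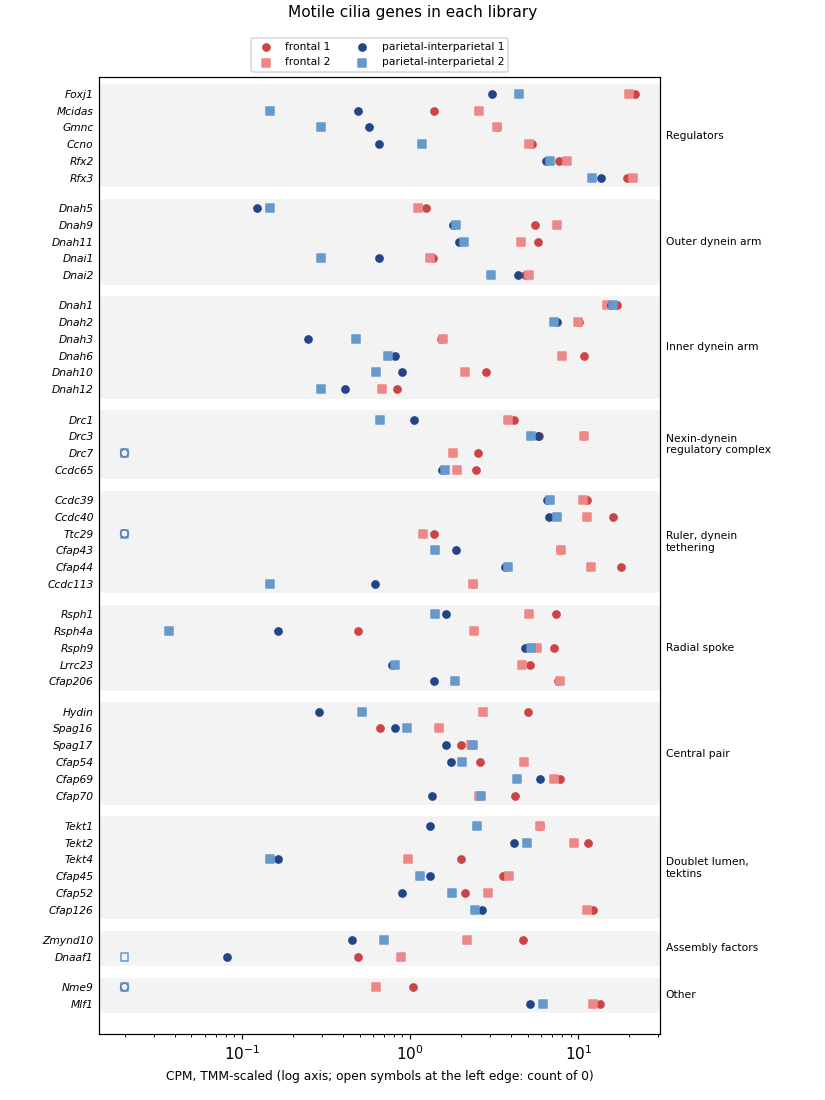
Level of each of the 48 genes in each of the 4 libraries, in TMM-scaled CPM on a log axis, grouped by role. Red symbols are frontal and blue symbols parietal-interparietal libraries, and open symbols mark a count of 0. For 44 of 48 genes both red symbols lie to the right of both blue ones.

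Of the 6 regulators, 5 were called higher in frontal libraries. Foxj1, the forkhead factor that directs motile ciliogenesis (chromosome 11, 116330704 to 116335399), was at 21.6 and 20 CPM in frontal libraries 1 and 2 and at 3.07 and 4.46 CPM in parietal-interparietal libraries 1 and 2. The groups did not overlap, and the log2 fold change was 2.46 ± 0.19 SE, or 5.5-fold. Gmnc, the geminin-like factor at the top of the multiciliation cascade, was at 3.3 and 3.27 CPM against 0.573 and 0.295 CPM (2.92 ± 0.45). Mcidas, the multicilin coactivator, was at 1.39 and 2.56 CPM against 0.491 and 0.147 CPM (2.64 ± 0.64). Both replicate pairs of Mcidas were wide apart, and its call was lost without parietal-interparietal library 2 (log2 fold change 2) and with that pair summed, and was kept without library 1 (3.71). Ccno, a cyclin-like protein needed for centriole amplification, was at 5.29 and 5.11 CPM against 0.655 and 1.18 CPM (2.49 ± 0.35).

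The RFX factors had smaller fold changes, a difference from the other regulators that was not tested. Rfx3 was at 19.4 and 21.1 CPM against 13.6 and 12 CPM, 1.58-fold higher, with a log2 fold change of 0.66 ± 0.14. Its call was lost when these were summed or when 1 of them was left out. Rfx2 was at 7.72 and 8.55 CPM against 6.47 and 6.78 CPM, with a log2 fold change of 0.30 ± 0.19, and was not called. Both are also expressed in cells without motile cilia. On the log2 scale Rfx2 and Rfx3 thus stood at 0.30 and 0.66, and the other 4 regulators between 2.46 and 2.92.

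Mcidas and Ccno are neighbours on chromosome 13 (112993845 to 113000394 and 112987802 to 112990777), next to Cdc20b (113035111 to 113091195), which is not on the list and which hosts microRNAs of the miR-449 family. Cdc20b, which takes part in centriole amplification, was at 1.74 and 2.13 CPM against 0.246 and 0.442 CPM, with a log2 fold change of 2.47 ± 0.54 (edgeR adjusted p = 0.0147), and was not called without parietal-interparietal library 1 (2.12) or with the pair summed (2.45). With 6 reads in parietal-interparietal library 1, Cdc20b was under the filter level of 0.356 CPM there and needed frontal counts to pass. The flanking genes Mtrex, Dhx29 and Gpx8 were not called. Gpx8 was at 170 and 182 CPM against 193 and 199 CPM, and Dhx29 at 75.5 and 76.2 CPM against 82.1 and 80.5 CPM. The excess in frontal libraries was therefore called for the 3 multiciliation genes of this stretch and for none of those 3 neighbours.

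The outer dynein arm list held 3 heavy chains and 2 intermediate chains, and the heavy chains were the 3 called. Dnah5, the heavy chain found along the whole axoneme, was at 1.25 and 1.11 CPM against 0.123 and 0.147 CPM (log2 fold change 3.08 ± 0.72). Parietal-interparietal libraries held 3 and 4 reads of it, close to the floor of 3 counts. Dnah9, a heavy chain of the distal axoneme, was at 5.56 and 7.44 CPM against 1.8 and 1.88 CPM (1.82 ± 0.27). Dnah11, a heavy chain of the proximal axoneme, was at 5.77 and 4.54 CPM against 1.96 and 2.1 CPM (1.34 ± 0.28). Summing the parietal-interparietal pair, or leaving out 1 of it, ended the calls of Dnah5 and Dnah11. The intermediate chains were not called, with Dnai1 at 1.36 and 1.31 CPM against 0.655 and 0.295 CPM, and Dnai2 at 4.83 and 5.08 CPM against 4.38 and 3.02 CPM.

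Among 6 inner arm heavy chains, 3 were called higher and the rest were not called. Dnah6 (chromosome 6, 73017606 to 73221651) stood out, at 10.8 and 8.01 CPM in frontal libraries against 0.818 and 0.737 CPM, 12.1-fold higher with a log2 fold change of 3.59 ± 0.29. Dnah10 was at 2.82 and 2.13 CPM against 0.9 and 0.626 CPM (1.69 ± 0.43), and Dnah3 at 1.53 and 1.56 CPM against 0.246 and 0.479 CPM (2.07 ± 0.58). The calls of Dnah10 and Dnah3 also ended on summing that pair or leaving out 1 of it, and that of Dnah3 in DESeq2 (adjusted p = 0.0604). Dnah1 was at 16.9 and 14.8 CPM against 15.6 and 16.0 CPM, so its groups overlapped, and its log2 fold change was 0.00 ± 0.14, with either sign among the alternatives. Dnah2 was at 10.1 and 9.91 CPM against 7.45 and 7.22 CPM (0.45 ± 0.17). Dnah12, with 24 reads in each frontal library and 10 and 8 in the others, had a log2 fold change of 1.10 ± 0.69.

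The nexin-dynein regulatory complex links neighbouring doublets, and its 4 listed subunits split into pairs. Drc7 (chromosome 8, 95055103 to 95078141) had 73 and 63 reads in frontal libraries, or 2.54 and 1.79 CPM, and 0 in both parietal-interparietal libraries, so its level was at least 37.2-fold higher where 3 counts summed over the group were taken as the floor. Drc1 was at 4.17 and 3.83 CPM against 1.06 and 0.663 CPM (2.21 ± 0.37). Drc3 was at 5.84 and 10.8 CPM against 5.73 and 5.23 CPM. Frontal library 2 alone stood high for Drc3, which was not called with all 4 libraries and was called without frontal library 1 (log2 fold change 0.98) and with no low-count filter (0.62). Ccdc65, also known as Drc2, was at 2.47 and 1.9 CPM against 1.55 and 1.62 CPM and was not called.

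The group of ruler and dynein tethering genes also took in Ttc29 and Ccdc113, and all 6 were called higher. Ccdc39 and Ccdc40 encode the molecular ruler that sets the spacing of the repeat along the doublet. They were at 11.3 and 10.7 CPM against 6.51 and 6.82 CPM, and at 16.2 and 11.3 CPM against 6.67 and 7.44 CPM, with log2 fold changes of 0.72 ± 0.17 and 0.96 ± 0.20. Of the exon bases of Ccdc39, 16.9% are shared with Ttc14 on the other strand, and the strand setting of the counting is not given. Cfap43 and Cfap44 tether an inner arm dynein to the doublet. Cfap44 was at 17.9 and 11.9 CPM against 3.68 and 3.8 CPM (1.99 ± 0.22), and Cfap43 at 7.79 and 7.84 CPM against 1.88 and 1.4 CPM (2.25 ± 0.26).

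Ttc29 (chromosome 8, 78213297 to 78394326), a tetratricopeptide protein of the axoneme, had 40 and 42 reads in frontal libraries, or 1.39 and 1.19 CPM, and 0 in both other libraries, which made it at least 22.2-fold higher. Ccdc113, a coiled-coil protein of cilia, was at 2.36 CPM in both frontal libraries and at 0.614 and 0.147 CPM in the others (2.64 ± 0.59). Without parietal-interparietal library 1 its log2 fold change was 3.96, and without library 2 it was 1.93 and not called. Ccdc39 was not called once the parietal-interparietal pair was summed or 1 of it left out, nor Ccdc40 without library 1.

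Of 5 radial spoke genes 4 were called higher. Cfap206, a protein of the base of a spoke, was at 7.58 and 7.81 CPM against 1.39 and 1.84 CPM (2.24 ± 0.26). Lrrc23, a spoke component, was at 5.15 and 4.6 CPM against 0.777 and 0.811 CPM (2.61 ± 0.33). Rsph1, of the spoke head, was at 7.34 and 5.11 CPM against 1.64 and 1.4 CPM (2.03 ± 0.30). All 3 genes kept their calls in every alternative run. Rsph4a, another head protein, had 14 and 84 reads in frontal libraries 1 and 2 and 4 and 1 in the others, so that its log2 fold change of 3.83 ± 0.99 rested on frontal library 2. Without that library it was 2.25 and not called, without frontal library 1 it was 4.55, and without parietal-interparietal library 1 and library 2 it was 5.15 and 3.11, the last not called. Rsph9, also of the head, was at 7.13 and 5.71 CPM against 4.79 and 5.2 CPM and was not called.

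Of 6 central pair genes 1 was called. That gene was Hydin, a giant protein of the central pair, at 5.04 and 2.73 CPM against 0.286 and 0.516 CPM, 9.47-fold higher with a log2 fold change of 3.24 ± 0.49. The remaining genes had log2 fold changes between 0.11 and 0.96. Spag17 was at 2.02 and 2.3 CPM against 1.64 and 2.36 CPM, Spag16 at 0.661 and 1.48 CPM against 0.818 and 0.958 CPM, and Cfap70 at 4.21 and 2.56 CPM against 1.35 and 2.65 CPM. In these 3 genes the groups overlapped, which left Dnah1 as the only other member with overlap. The sign of Spag16 turned without frontal library 2 (log2 fold change −0.44), and that of Spag17 without parietal-interparietal library 1 (−0.13). Spag17 shares 15.7% of its exon bases with genes on the other strand. Cfap54 was at 2.61 and 4.74 CPM against 1.76 and 2.03 CPM, and Cfap69 at 7.75 and 7.18 CPM against 5.89 and 4.35 CPM. Cfap54 was called without frontal library 1 (1.32) and with no low-count filter (0.97), and Cfap69 and Cfap70 without frontal library 2 (0.59 and 1.05). Whether the central pair differed from the other groups was not tested.

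Proteins of the doublet lumen and the tektins, filament proteins inside the doublet wall, were called in 5 of 6. Cfap126, also called Flattop, was at 12.2 and 11.2 CPM against 2.66 and 2.43 CPM (2.20 ± 0.20). Tekt2 was at 11.4 and 9.43 CPM against 4.13 and 4.97 CPM (1.19 ± 0.20), with 20.8% of its exon bases shared with a gene model on the other strand. Tekt1 was at 5.95 and 5.91 CPM against 1.31 and 2.51 CPM (1.62 ± 0.32), and Cfap45 at 3.58 and 3.86 CPM against 1.31 and 1.14 CPM (1.60 ± 0.33). In all 4 of these genes the groups were well apart, with the widest pair in Tekt1. Tekt4 was at 2.02 and 0.966 CPM against 0.164 and 0.147 CPM, from 4 reads in each of the latter (3.22 ± 0.71). Its call was lost with the pair summed and on leaving out any 1 library except frontal library 2, and its log2 fold change was 2.60 without frontal library 1. Tekt1 was not called without parietal-interparietal library 1, nor Cfap45 without library 2 or with the pair summed. Cfap52 was at 2.12 and 2.92 CPM against 0.9 and 1.77 CPM, not called except without frontal library 1 (1.12).

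Both assembly factors, which fold and load dyneins in the cytoplasm, were called. Zmynd10 was at 4.69 and 2.19 CPM against 0.45 and 0.7 CPM (2.56 ± 0.49, and 1.91 without frontal library 1). Dnaaf1 had 14 and 31 reads in frontal libraries and 2 and 0 in the others, a pooled ratio of 18.1 with an exact 95% interval of 4.74 to 154 that covers counting error only. The interval takes each count of Dnaaf1 as independent and would be too narrow if mates of a pair were counted separately. Without parietal-interparietal library 1 the group had no count of it, and without library 2 the log2 fold change was 3. Its call was lost with total-count scaling, with the pair summed and on leaving out any 1 library except frontal library 1, and 20.7% of its exon bases are shared with Taf1c on the other strand. Nme9, a thioredoxin-domain protein of cilia (chromosome 9, 99451475 to 99474751), had 30 and 22 reads in frontal libraries, or 1.04 and 0.625 CPM, and 0 in both others, at least 14.3-fold higher. Without either parietal-interparietal library Nme9 was not called. Mlf1, whose promoter is printed above, was at 13.5 and 12.3 CPM against 5.16 and 6.19 CPM (1.18 ± 0.18).

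**Figure D2:**
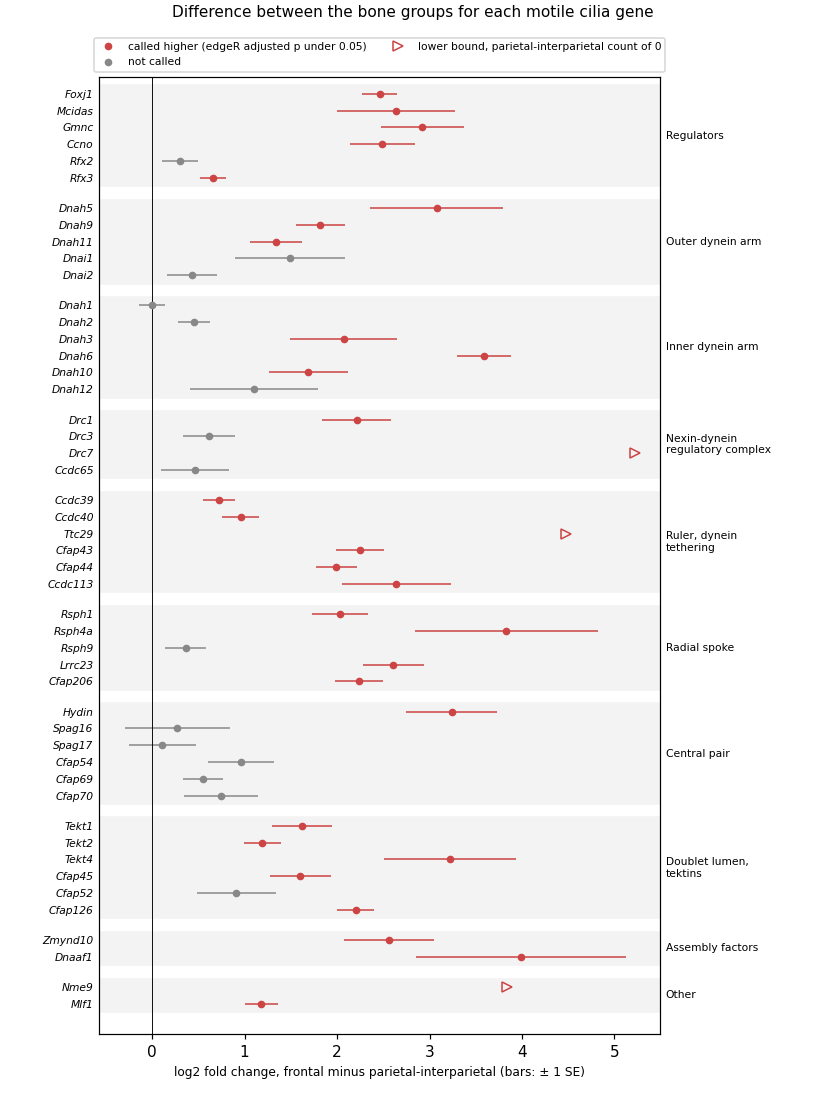
Log2 fold change of each gene, frontal minus parietal-interparietal, with bars of 1 SE on each side from edgeR. Red points were called and grey points were not, and open triangles are the lower bounds of Drc7, Ttc29 and Nme9, which had no parietal-interparietal count. Hydin stands apart from the grey points of the other central pair genes.

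Per kilobase of exon, so that genes of different length can be compared, the members were modest. Their median level was 1.02 CPM per kb in frontal libraries and 0.309 CPM per kb in parietal-interparietal libraries, where all tested genes had medians of 2.66 and 2.65. Only 9 members lay above the median of all genes in frontal libraries and 2 in the others. Foxj1 was the highest in frontal libraries at 7.94 CPM per kb, followed by Mlf1 at 7.5, Cfap126 at 6.61, Tekt2 at 5.49, Rsph1 at 4.54 and Rsph9 at 4.01. In parietal-interparietal libraries the order was Mlf1 at 3.3, Rsph9 at 3.12, Tekt2 at 2.4, Cfap126 at 1.44 and Foxj1 at 1.43. Foxj1 thus led one group and came after Mlf1, Rsph9, Tekt2 and Cfap126 in the other. The lowest levels in frontal libraries were those of the heavy chains Dnah12 at 0.0631 and Dnah5 at 0.0754 CPM per kb, while other heavy chains reached 0.712 in Dnah6 and 1.21 in Dnah1, the latter in both groups. Neighbouring ranks were not tested against each other.

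**Figure D3:**
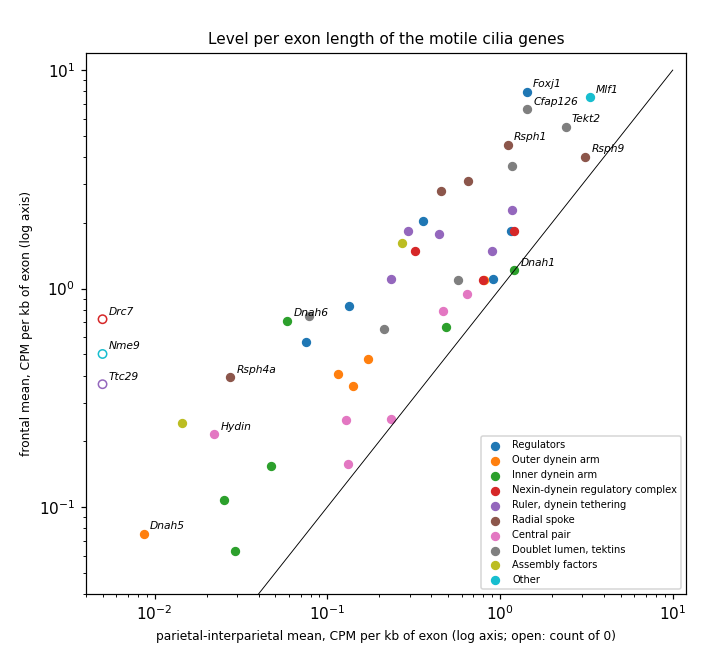
Mean level of each gene in CPM per kb of exon, frontal on the vertical and parietal-interparietal on the horizontal log axis, coloured by role. The diagonal marks equal levels, Dnah1 lies on it, and open symbols at the left are Drc7, Ttc29 and Nme9 with a count of 0 in the parietal-interparietal libraries.

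Replicates of a group lay close together for most members. In CPM, the 2 frontal libraries differed by more than 2-fold for 4 of 48 genes (Rsph4a, Spag16, Tekt4 and Zmynd10). The 2 parietal-interparietal libraries did so for 5 of the 45 genes with a count there (Mcidas, Dnai1, Ccdc113, Rsph4a and Dnaaf1). The level was higher in frontal library 2 than in library 1 for 16 of 48 genes, with a median log2 ratio of −0.11.

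Genes of the same structures that are not on the list were counted in the same fit. Of 76 further axoneme genes 69 were tested, 22 were called higher (31.9%) and 0 lower, and the median log2 fold change was 0.77 against 0.006 for all tested genes. The count was 34 without frontal library 2 and 14 without parietal-interparietal library 2. The smallest p-values were those of Dnai3, an inner arm intermediate chain (log2 fold change 2.90 ± 0.31, edgeR adjusted p = 0.000383), Dynlrb2, a dynein light chain (3.44 ± 0.37, adjusted p = 0.000383), Cfap65 (4.59 ± 0.50, adjusted p = 0.000415) and Ak7, an adenylate kinase of cilia (3.39 ± 0.39, adjusted p = 0.000547). Dynlrb2 was at 4.31 and 5.03 CPM against 0.409 and 0.442 CPM. Cfap65 had 161 and 208 reads in frontal libraries and 10 and 2 in the others, and its log2 fold change was 6.21 without parietal-interparietal library 1 and 3.80 without library 2, called in both. Among the called axoneme genes, Spag6l, Cfap161, Meig1, Ccdc146, Ak9, Iqub and Iqca were under the filter level of 0.356 CPM in both parietal-interparietal libraries. These genes passed the filter only through their frontal counts. Cfap65, Ak7, Enkur and Cfap91 were under that level in 1 parietal-interparietal library, so they too could not have passed without frontal counts. Of 14 further genes of the multiciliation programme, both frontal libraries lay above both others in 8 and below in 2 (Foxn4 and E2f4). Over all tested genes the shares were 28.9% and 28.4%. Foxn4, with 10 and 6 reads in frontal libraries and 12 and 31 in the others, was not called (log2 fold change −1.66 ± 0.79). Of the 14, 5 were called higher (35.7%, against 6.25% of all tested genes) and 0 lower, with a median of 0.32. They were Deup1, which organizes the deuterosome (3.82 and 3.72 CPM against 0.696 and 0.737 CPM), Trp73 (2.9-fold), Stil (1.55-fold), Ccp110 (1.42-fold) and Cdc20b (5.53-fold). That count was 2 with the parietal-interparietal pair summed or library 1 left out, and 3 without library 2.

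Primary cilium and intraflagellar transport genes, which all ciliated cells use, were counted in the same way. Of 44 tested, 3 were called higher (6.82%) and 0 lower, a share near the 6.25% of all genes. Their median log2 fold change was 0.12. In 22 of the 44 both frontal libraries lay above both others and in 4 below, against 28.9% and 28.4% of all tested genes. The called genes were B9d1 of the transition zone (0.68 ± 0.13, edgeR adjusted p = 0.00696), Bbs1 of the BBSome (0.68 ± 0.16, adjusted p = 0.0192) and Dync2h1, the motor of retrograde transport (0.36 ± 0.09, adjusted p = 0.0258), which was not called with total-count scaling (0.31). Without frontal library 1 the counts were 11 higher and 2 lower, without frontal library 2 they were 9 and 4, and without parietal-interparietal library 1 and library 2 they were 1 and 0 higher. With the pair summed none was called.

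Markers of choroid plexus, of olfactory and nasal epithelium and of other tissues were counted too. Over all tested genes, 6.25% were called higher and 6.44% lower. Of 13 choroid plexus markers 5 were called higher (Ttr, Folr1, Clic6, Kcne2 and Slc4a5), 0 lower and 8 not called, among them Otx2, Sostdc1, Kl and F5 with log2 fold changes of −0.02, 0.24, −0.33 and 0.04. They summed to 887 and 952 CPM in frontal libraries and 112 and 117 CPM in the others, of which Ttr was the largest share, and the remaining 12 summed to 139 and 174 CPM against 82.5 and 91.4 CPM. Slc4a5 was not called on leaving out parietal-interparietal library 1 (log2 fold change 1.33) or library 2 (1.32), nor with that pair summed (1.32). None of the 13 was at 0 in any library. With 2 reads in parietal-interparietal library 1, Kcne2 was under the filter level of 0.356 CPM there and needed frontal counts to pass. Ttr, which encodes transthyretin, was at 748 and 778 CPM against 29.6 and 25.7 CPM, and Folr1, a folate receptor, at 8.07 and 9.40 CPM against 1.06 and 0.921 CPM. Of 12 olfactory and nasal epithelium markers 10 were tested, 4 were called higher (Bpifa1, Cyp2g1, Cyp2a5 and Omp) and 6 were not called, with sums of 86.6 and 91.1 CPM against 72.3 and 70.5 CPM. All 4 called were under the filter level of 0.356 CPM in both parietal-interparietal libraries. They passed the filter only through their frontal counts. Cyp2g1, Cyp2a5 and Umodl1 had no count in parietal-interparietal library 1. Omp was not called without frontal library 2 (log2 fold change 2.17). Nor was it called without parietal-interparietal library 1 (2.52) or library 2 (3.16), or with that pair summed (2.79). Forebrain markers were called higher in 10 of 10, with sums of 475 and 482 CPM against 67.2 and 63.5 CPM and a count of 0 only for Emx1 in parietal-interparietal library 2. Eomes, Emx1 and Tbr1 also passed the filter only through their frontal counts. Markers of midbrain and hindbrain were called lower in 6 of 7, with sums of 22.6 and 26.2 CPM against 91.7 and 98.6 CPM. Pax5, among them, passed the filter only through its parietal-interparietal counts. General epithelial markers summed to 696 and 643 CPM against 701 and 691 CPM, with 2 of 8 higher (Krt8 and Krt18) and 1 lower (Cdh1). Muscle markers were called lower in 6 of 8, with sums of 1460 and 1400 CPM against 1930 and 1910 CPM, and meningeal markers in 5 of 8, with 1 higher. The part of these cell types in the difference of the motile cilia genes was not tested.

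**Figure D4:**
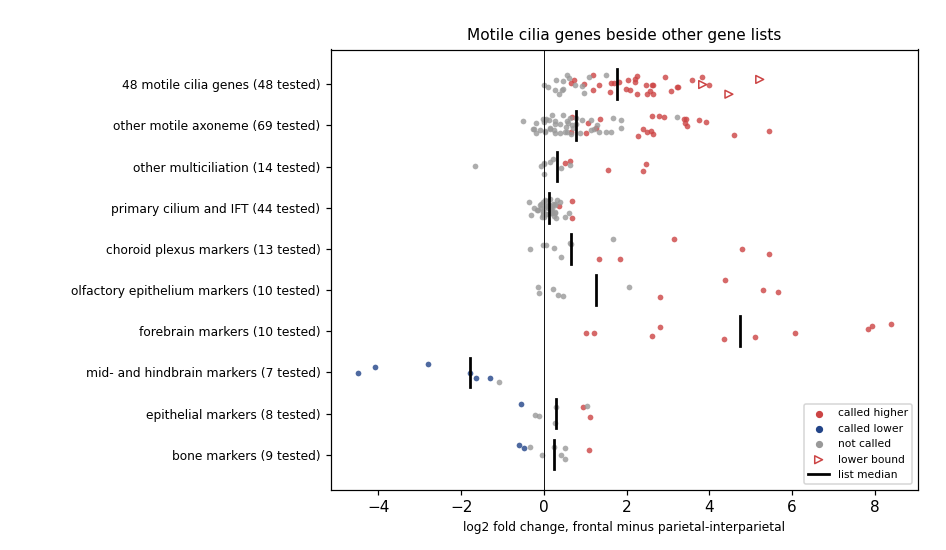
Log2 fold change, frontal minus parietal-interparietal, of every tested gene of the motile cilia list and of the lists beside it, with the vertical jitter for legibility only. Red points were called higher, blue lower and grey not called, black bars are list medians, and triangles are lower bounds. The primary cilium genes lie around 0, with a median of 0.12.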

How the data were processed

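The authors deposited a table of raw counts per Ensembl gene for 4 libraries, 2 frontal and 2 parietal-interparietal. Per the submitters' processing notes, Trim Galore 0.6.7, HISAT2 2.1.0 and featureCounts 2.0.1 were used with GRCm38. The sources used here give no settings, strand setting, annotation release or treatment of multi-mapped reads, so reads of overlapping genes on opposite strands cannot be told apart. Among counts of 1 to 20, 68.3% to 74.4% were even, and whether mates of a pair were counted separately is not given, so counts were also halved. Of 55487 IDs, 55141 matched the GENCODE GRCm38 annotation and 346 did not.

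From these counts, genes were filtered with filterByExpr (minimum count 10), scaled by TMM and tested with the quasi-likelihood test of edgeR 4.0.16 in R 4.3.3, with Benjamini-Hochberg adjustment over 20947 genes and 2 residual degrees of freedom. The SE of a log2 fold change was its size over the root of edgeR's F statistic. Folds against a group at 0 use a floor of 3 counts over that group, which would stand for fewer read pairs if mates were counted separately. The rule for named genes was all 6 regulators, members at 0 in a whole group, in each other role the 3 called members with the largest change and the one highest per exon length, and in other lists up to 4 called genes with the smallest p. The remaining members and Cdc20b were added after their values were seen. The list members, the gene and marker lists and the alternatives were chosen with earlier results of these data known. Alternatives were total-count scaling, DESeq2 size factors, DESeq2 1.42.0, other low-count filters, halved counts, a replicate block, summing 1 pair, and leaving out each library. The fit was tested on simulated data. Promoters came from RefSeq GRCm38.p6, searched with Python 3.11.15.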

Additional observations from a re-analysis of the deposited data

How the results depend on the processing

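Members called higher in frontal libraries numbered 33. They numbered 26 in DESeq2, where 41 had an adjusted p, and 29 with at least 1 CPM in 2 libraries, where 42 were tested. Over these, the other scalings and filters and the replicate block, they numbered between 26 and 35. With the parietal-interparietal pair summed they numbered 22, and on leaving out 1 library between 20 (without parietal-interparietal library 2) and 35. None was called lower in any alternative. The sign turned in some alternative for 3 uncalled members. With 1 library left out, the log2 fold change ran from −0.44 (without frontal library 2) to 0.73 for Spag16, from −0.13 (without parietal-interparietal library 1) to 0.40 for Spag17 and from −0.09 (without frontal library 1) to 0.09 for Dnah1, which was also at −0.01 without parietal-interparietal library 1. Dnah1 was at −0.05 with total-count scaling and at 0.00 with the pair summed. Of the 33 called members, 18 kept the call in every alternative that gave a value and 15 lost it in at least 1. The median log2 fold change of the members, 1.76, was 1.65 with at least 1 CPM in 2 libraries, 1.67 with halved counts and 1.66 to 1.88 with 1 library left out. That of the further multiciliation genes was 0.41 under both of those filters, against 0.32. Their called number, 5, was 2 with the pair summed and 2 to 7 with 1 library left out. Primary cilium genes called higher numbered 5 with no filter, 0 with the pair summed and 0 to 11 with 1 library left out, and those called lower 0 to 4. For further axoneme genes the ranges were 14 to 34 higher and 0 to 1 lower. Over all genes, 379 were called higher and 412 lower with the pair summed, and 423 to 3483 higher and 442 to 3796 lower with 1 library left out. Total-count scaling gave 984 higher and 1606 lower, against 1309 and 1348. The summed and left-out fits have fewer samples, and a lone sample is assumed to vary like the other group.

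The libraries share replicate numbers, but their deviations from the group means correlated at only 0.0192 over 20947 genes and the labels tie no number to an embryo or litter. With the replicate block, 33 members, 25 further axoneme genes, 6 further multiciliation genes and 4 primary cilium genes were called higher. Low counts limit Dnah5, Rsph4a, Tekt4, Dnaaf1, Drc7, Ttc29 and Nme9, which passed the filter only through their frontal libraries. Mcidas, Gmnc, Dnah3, Hydin, Ccdc113, Dnai1 and Dnah12 also needed frontal counts to pass.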
